A study of Homo sapiens with 6 samples.

Results

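Respiratory complex I genes were taken here as the protein-coding genes on the hg19 build whose symbols name a subunit (NDUFA, NDUFB, NDUFC, NDUFS or NDUFV with a digit, and NDUFAB1) or an assembly factor (NDUFAF with a digit). There were 48 of them among 19785 protein-coding genes, 40 for subunits and 8 for assembly factors. The choice rested on symbols alone and used no binding value. Of the 40 subunit symbols, NDUFA4 is now assigned to complex IV, NDUFA4L2 is its paralog, and NDUFC2-KCTD14 is a read-through gene that begins at the start of NDUFC2. Myc occupancy at their promoters was measured by chromatin immunoprecipitation sequencing (ChIP-seq) in MDA-MB-231, a triple-negative breast cancer cell line. The groups were parental MDA-MB-231 cells and TKO cells, MDA-MB-231 cells in which TXNIP, the thioredoxin interacting protein, had been knocked out with CRISPR-Cas9. Both were grown in the same medium, each group had 2 Myc libraries described as biological replicates, and the comparison asks whether Myc occupancy differs without TXNIP. TKO cells came from knockout clones grown from single cells, so TXNIP loss and the traits of a clone cannot be told apart. Peak lists hold no expression, so neither the cell line nor the knockout could be checked by markers. TXNIP itself had no promoter peak in any of the 4 libraries.

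Complex I takes electrons from NADH into the respiratory chain, passes them to ubiquinone and pumps protons across the inner mitochondrial membrane. Its core subunits in the N module oxidize NADH, those in the Q module reduce ubiquinone, and many accessory subunits surround them and stabilize the complex. The core subunits of the membrane arm are encoded by mitochondrial DNA and are not among these genes, while the assembly factors help to build the complex without staying in it. Myc is a transcription factor that binds DNA together with Max, with a preference for the E-box sequence CACGTG, and genes for mitochondrial proteins are among its known targets.

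A promoter peak was a peak whose summit lay within 1 kb of a start site of the gene. The gene's strongest promoter peak in a library was the one with the highest fold enrichment. Lists held 3720 and 5719 peaks in parental replicates 1 and 2 and 27213 and 25887 peaks in TKO replicates 1 and 2. Depth, recovered from the lists, came to 26.4 and 22.2 M reads for the parental libraries and to 19.9 and 13.0 M reads for TKO, so the longer lists came from the shallower libraries. Peak height is given as summit RPM, the reads piled up at the summit per 1 M reads of the library. The extension of the reads, assumed equal to the narrowest listed peak, was 140 and 151 bp in parental and 182 and 201 bp in TKO libraries, and a longer extension raises the pile-up. A ratio that divides by the extension is given beside the main ratio of heights.

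At 8 of the 48 genes a CACGTG E-box lay within 50 bp of the summit of the strongest promoter peak in at least 1 library. Their sequences are shown because the E-box is the site that Myc is known to prefer. They are 30 bases of GRCh37 (hg19), 5′ to 3′ on the gene's strand, with the E-box in capitals.
NDUFA11 (chr19:5903916-5903945, minus strand, intron): ggcctggggatgCACGTGctactctcttcc
NDUFA7 (chr19:8386362-8386391, minus strand, outside the gene): gcggagaggagtCACGTGcttcggggagag
NDUFC1 (chr4:140222675-140222704, minus strand, UTR): ccgtcggcggttCACGTGgtaactgaacag
NDUFS7 (chr19:1383707-1383736, plus strand, UTR): acccgcggccccCACGTGcgcactccgatg
NDUFAF2 (chr5:60241134-60241163, plus strand, coding exon): gaagtgaaggagCACGTGggcacggaccaa
NDUFAF4 (chr6:97345700-97345729, minus strand, UTR): cgccggtgttccCACGTGcggcctgaacct
NDUFAF5 (chr20:13765536-13765565, plus strand, outside the gene): cctaccaagcctCACGTGgggctcacaccc
NDUFA4L2 (chr12:57634361-57634390, minus strand, intron): gacagtgtgacgCACGTGcgcgcgcgagtg

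Myc was found at the promoters of 15 of 48 complex I genes (31.2%) in each parental replicate. The same was true of 12.2% and 12.9% of all 19785 protein-coding genes in these libraries. In TKO, 41 (85.4%) and 42 (87.5%) complex I genes had a promoter peak, against 49.1% and 49.7% of all genes. On average 15 ± 0 genes were bound per parental library and 41.5 ± 0.707 per TKO library (SD, n = 2 each), a difference of 26.5. The groups did not overlap. The exact two-sided permutation test over libraries returned p = 0.333, and with 2 libraries per group it cannot return less. The share of complex I genes exceeded that of all genes by a mean of 18.7 percentage points in parental cells and by 37.02 in TKO.

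**Figure D1:**
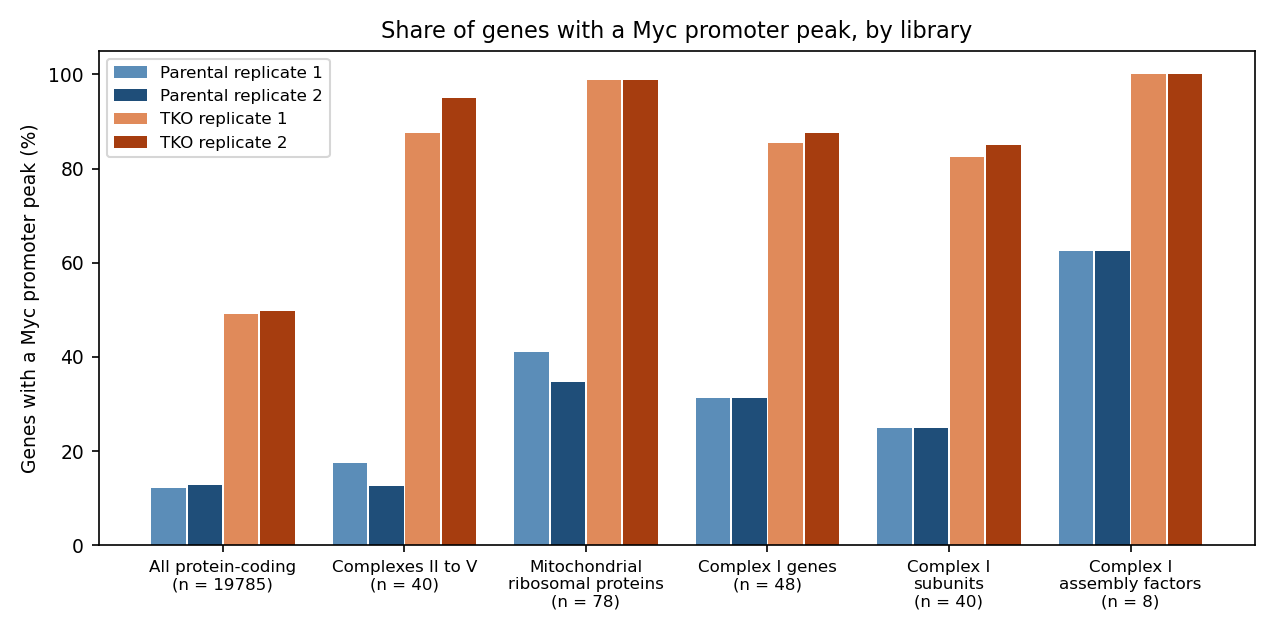
Bars give the percentage of genes in each list that had a Myc promoter peak, with 1 bar for each of the 4 libraries and the number of genes under each list. Complex I genes stood at 31.2% in both parental libraries and at 85.4% and 87.5% in TKO, and the 8 assembly factor genes reached 100% in TKO.

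The count of bound genes depended on the length of the lists. With 3720 peaks kept in each list by −log10 p-value, 15 and 10 complex I genes were bound in parental replicates 1 and 2 and 11 and 12 in TKO replicates 1 and 2. As shares of the 48 genes this made 31.2% and 20.8% (parental) and 22.9% and 25.0% (TKO), against 12.2%, 9.07%, 13.3% and 13.6% of all genes. The difference between TKO and parental means was then -1, in the opposite direction. Lists of equal length remove any difference in the number of peaks by design, so this setting cannot tell whether binding differed. With a fold of at least 5 in every list the means were 10 genes in parental and 33.5 in TKO, a difference of 23.5. All genes then stood at 8.18% and 7.74% in parental and at 37.9% and 41.1% in TKO. In each of the 4 lists of 3720 peaks complex I genes were bound at a higher share than all genes.

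**Figure D2:**
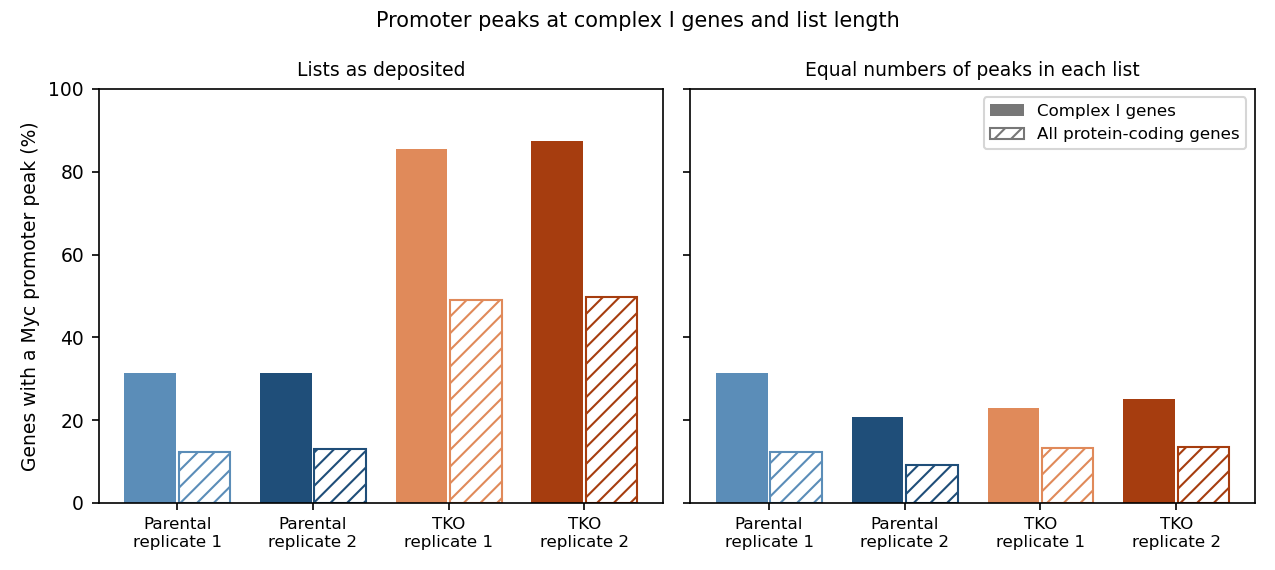
Filled bars give the percentage of complex I genes and hatched bars that of all protein-coding genes with a Myc promoter peak in each library. With the lists as deposited TKO libraries reach 85.4% and 87.5%, and with 3720 peaks in each list the 4 libraries lie between 20.8% and 31.2%.

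Subunit genes and assembly factor genes were both bound in larger number in TKO, as were protein-coding genes at large (12.2% and 12.9% in parental, 49.1% and 49.7% in TKO). Of the 40 subunit genes, 10 were bound in each parental replicate and 33 and 34 in TKO, a difference of 23.5 (exact permutation p = 0.333). Of the 8 assembly factor genes, 5 were bound in each parental and all 8 in each TKO replicate, a difference of 3 (exact permutation p = 0.333). With 3720 peaks in each list the subunit difference was -1.5 and that of assembly factors 0.5. Whether subunits and factors differed from each other was not tested.

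By library, 13 complex I genes were bound in all 4 libraries, where 9.32% of all genes were. A further 4 were bound in both TKO libraries and 1 parental library (6.16% of all genes), and 23 in both TKO and no parental library (29.8% of all genes). Another 3 were bound in 1 TKO library alone (8.2% of all genes) and 5 in none (46.3% of all genes). No complex I gene was bound in a parental library without being bound in both TKO libraries, a pattern that was rare among all genes too (54 of 19785, 0.273%). All 5 genes without a peak were subunit genes.

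**Figure D3:**
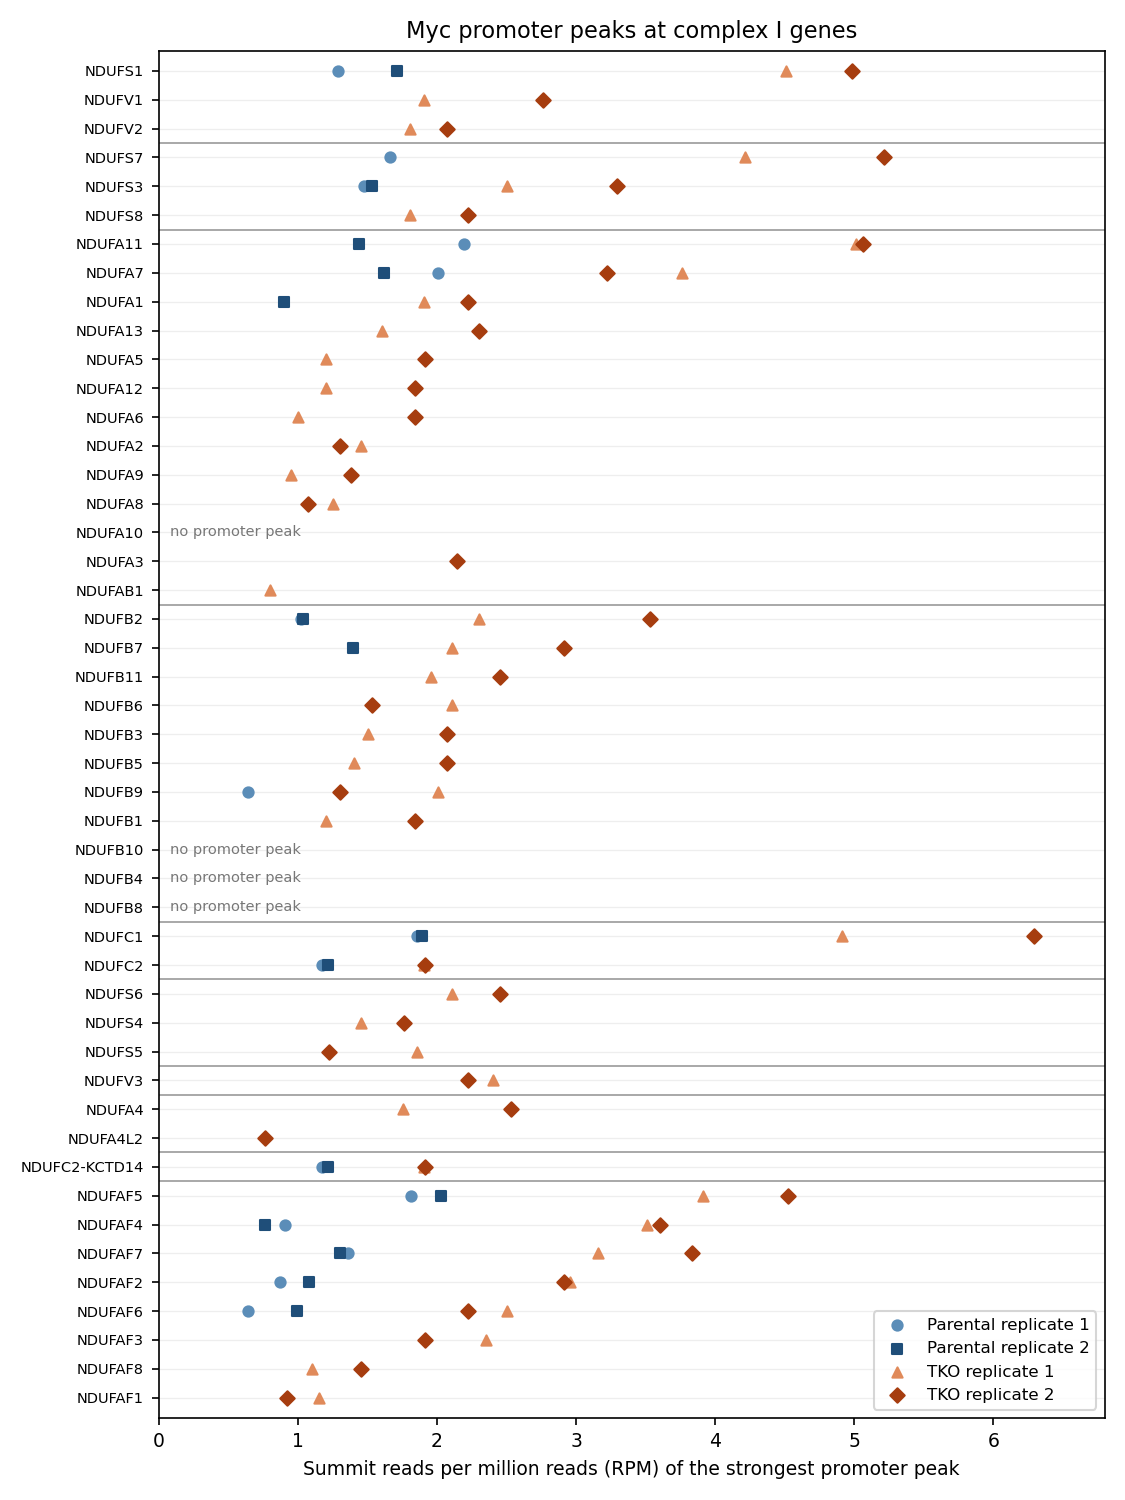
Points give the summit RPM of the strongest promoter peak of 47 complex I genes, with 1 symbol per library, and lines separate the roles (core N module, core Q module, accessory NDUFA, NDUFB, NDUFC, NDUFS and NDUFV, NDUFA4 type, read-through, assembly factors). TKO points lie to the right of parental points wherever a gene has both, and NDUFA10, NDUFB4, NDUFB8 and NDUFB10 have no promoter peak.

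Core subunit genes were taken by module. In the N module, NDUFS1 encodes the large iron-sulfur subunit that carries electrons away from the NADH site. Its strongest promoter peak had 1.29 and 1.71 summit RPM in parental replicates 1 and 2 and 4.51 and 4.99 in TKO replicates 1 and 2. Both TKO values lay above both parental ones, a ratio of means of 3.17. The NDUFS1 summits lay 311 to 500 bp upstream of its start, and the start of EEF1B2, a translation elongation factor gene on the opposite strand, was nearer. NDUFV1, whose protein binds NADH and the flavin cofactor, had peaks only in TKO, at 1.91 and 2.76 summit RPM. NDUFV2, its iron-sulfur partner, likewise had peaks only in TKO, at 1.80 and 2.07. Both ranked high by fold among TKO-only complex I genes, with mean TKO percentiles of 73.3 for NDUFV1 and 89.2 for NDUFV2.

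In the Q module, NDUFS7, an iron-sulfur subunit next to the ubiquinone site, had 1.67 summit RPM in parental replicate 1, no promoter peak in parental replicate 2, and 4.21 and 5.22 in TKO. NDUFS3, a core subunit that carries no iron-sulfur cluster, had 1.48 and 1.53 in parental and 2.51 and 3.30 in TKO. NDUFS8, another iron-sulfur subunit, had peaks only in TKO, at 1.80 and 2.22 summit RPM. NDUFS1 and NDUFS7 were among the 5 complex I genes with the highest mean TKO summits.

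Among the 30 accessory subunit genes, 6 (20.0%) and 7 (23.3%) were bound in parental replicates 1 and 2 and 25 (83.3%) in each TKO replicate. All protein-coding genes stood at 12.2% and 12.9% in parental and at 49.1% and 49.7% in TKO, so the rise was not particular to this class. Of the 13 NDUFA-type genes, 2 (15.4%) and 3 (23.1%) were bound in parental and 11 (84.6%) in each TKO library. NDUFA11, a membrane subunit, had 2.19 and 1.44 summit RPM in parental and 5.01 and 5.06 in TKO, from 58, 32, 100 and 66 reads. NDUFA7 had 2.01 and 1.62 in parental and 3.76 and 3.22 in TKO. At both genes the TKO heights lay above the parental ones. By fold enrichment this held at NDUFA11 but not at NDUFA7, where TKO replicate 2 (7.48) was below parental replicate 1 (8.73). The NDUFA7 peaks lay upstream of the gene, around the start of RPS28, a ribosomal protein gene on the opposite strand. NDUFA1 was bound in parental replicate 2 (0.901 summit RPM) and in TKO (1.91 and 2.22). NDUFA10, a membrane arm subunit, had no promoter peak, with the nearest TKO summits at 97806 and 111081 bp. NDUFAB1, the mitochondrial acyl carrier protein, had a promoter peak only in TKO replicate 1, at 0.802 summit RPM, and NDUFA3 only in TKO replicate 2, at 2.15.

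NDUFB genes encode accessory subunits of the membrane arm, mostly its distal part. Of 11, 2 (18.2%) were bound in each parental and 8 (72.7%) in each TKO library. The shares of all protein-coding genes were 12.2% and 12.9% in parental and 49.1% and 49.7% in TKO. NDUFB2 was bound in all 4, with 1.02 and 1.04 summit RPM in parental and 2.31 and 3.53 in TKO. NDUFB7 was bound in parental replicate 2 (1.40) and in TKO (2.11 and 2.91), and NDUFB9 in parental replicate 1 (0.643) and in TKO (2.01 and 1.30). NDUFB11 was the TKO-only complex I gene with the highest mean percentile by fold, 89.9, at 1.96 and 2.45 summit RPM. NDUFB3 was the one with the lowest, 14.4, at 1.50 and 2.07. NDUFB4, NDUFB8 and NDUFB10 had no promoter peak, with the nearest TKO summits at 37025 and 37096 bp, 5818 and 5856 bp, and 4471 and 5230 bp.

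Both NDUFC genes were bound in all 4 libraries, as were 9.32% of all protein-coding genes. NDUFC1 had 1.85 and 1.89 summit RPM in parental and 4.91 and 6.29 in TKO, and its mean TKO height, 5.60, was the highest of the complex I genes. The NDUFC1 summits lay 301 to 365 bp upstream of its start, and the start of NAA15 on the opposite strand was nearer in all 4 libraries. NDUFC2 had 1.17 and 1.22 in parental and 1.91 and 1.92 in TKO, the smallest ratio of means among genes bound in all 4 libraries, 1.60. NDUFC2-KCTD14 was credited with the same peaks, so NDUFC2 and the read-through gene are 1 site and not 2. The accessory genes NDUFS4, NDUFS5, NDUFS6 and NDUFV3 were bound in both TKO and in neither parental library. NDUFA4 was bound in TKO alone (1.75 and 2.53 summit RPM) and NDUFA4L2 in TKO replicate 2 alone (0.767).

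Assembly factor genes were bound in parental cells at 5 of 8 (62.5%), against 12.2% and 12.9% of all protein-coding genes. NDUFAF4, which acts with NDUFAF3 in building the Q module, had 0.908 and 0.766 summit RPM in parental and 3.51 and 3.60 in TKO, the largest ratio of means among genes bound in all 4 libraries, 4.25. NDUFAF5, which hydroxylates NDUFS7, had 1.82 and 2.03 in parental and 3.91 and 4.53 in TKO. NDUFAF7, a methyltransferase, had 1.36 and 1.31 in parental and 3.16 and 3.84 in TKO. For all 3 factors the TKO heights lay above the parental heights. NDUFAF7 ranked at percentiles 98.9 and 99.2 by fold in the TKO lists. At NDUFAF5 the start of ESF1 was nearer to the summit in every library. At NDUFAF7 the start of CEBPZ was nearer in both TKO libraries and in parental replicate 1. NDUFAF2, a factor for late assembly steps, had 0.870 and 1.08 in parental and 2.96 and 2.91 in TKO. NDUFAF1, NDUFAF3 and NDUFAF8 were bound in both TKO and no parental library. Their TKO values were 1.15 and 0.920 at NDUFAF1, 2.36 and 1.92 at NDUFAF3, and 1.10 and 1.46 at NDUFAF8.

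NDUFAF6 counted as bound in all 4 libraries, at 0.643 and 0.992 summit RPM in parental and 2.51 and 2.22 in TKO, but not at 1 site. The gene has starts far apart, and the parental summits lay at different starts, with 129034 bp between the lowest and the highest of its strongest summits over the 4 libraries. TKO replicate 1 had 3 promoter peaks at NDUFAF6 and TKO replicate 2 had 5. They lay around both of these starts, apart from 1 peak of TKO replicate 2 near a start between them. Its ratio of 2.89 therefore compares different sites.

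At each of the 13 genes bound in all 4 libraries, summit RPM in both TKO libraries were above both parental libraries. The same held for 99% of the 1843 protein-coding genes bound in all 4, so complex I genes did what nearly all such genes did. By fold enrichment the TKO values were above both parental values at 10 of the 13 genes, against 92% of the 1843. The exceptions were NDUFA7 and the peak that NDUFC2 shares with NDUFC2-KCTD14 (6.61 in parental replicate 1 and 6.24 in TKO replicate 2). The median over the 13 was 1.29 and 1.31 in the parental libraries and 3.16 and 3.53 in TKO, or 1.30 ± 0.0145 against 3.34 ± 0.261 (SD, n = 2; exact permutation p = 0.333). The median ratio of TKO to parental means was 2.77, beside 2.56 over all genes bound in all 4. With the fold in place of RPM the median ratio was 2.03. With summit reads divided by the even coverage that depth and extension would give it was 2.09. It was 2.77 at the 11 genes whose 4 summits lay within 1 kb of each other, the read-through gene left out. These genes had to pass the threshold in the short parental lists, so the ratio does not describe the other complex I genes.

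**Figure D4:**
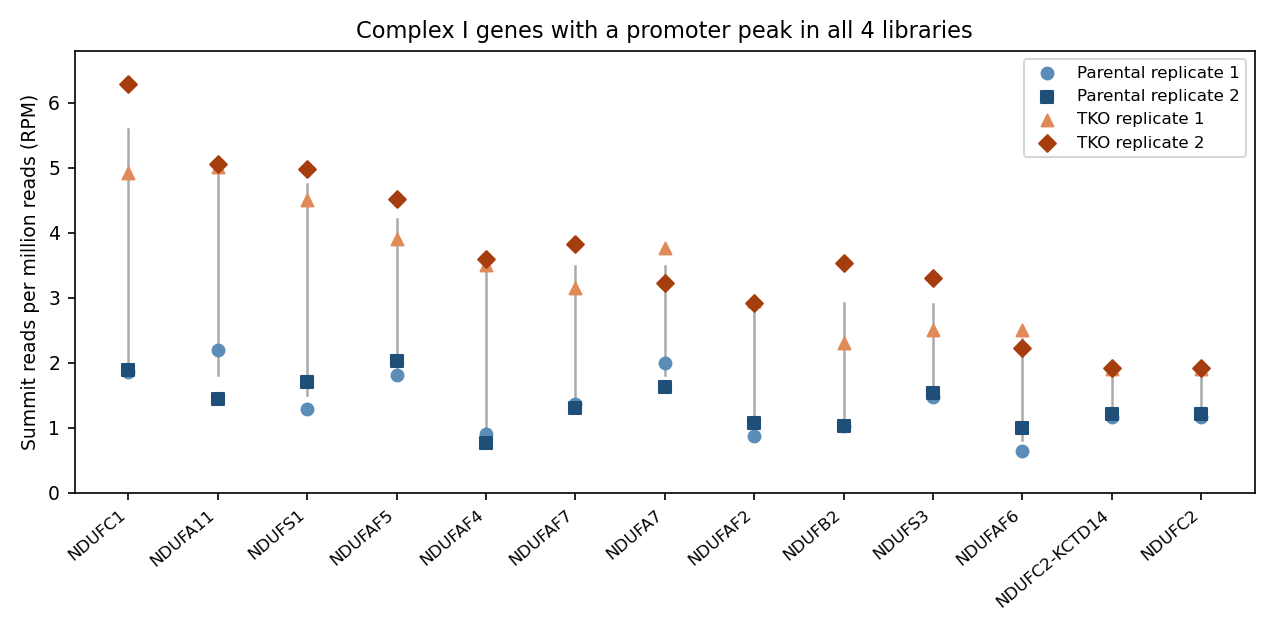
Points give summit RPM for the 13 complex I genes bound in all 4 libraries, with 1 symbol per library and a grey line from the parental to the TKO mean, in order of the TKO mean. At each gene both TKO points lie above both parental points, from NDUFC1 (4.91 and 6.29 in TKO) to NDUFC2 (1.91 and 1.92).

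Genes bound in TKO alone had a lower median summit in TKO than genes bound in all 4 libraries. At the 23 TKO-only genes summit RPM ranged from 0.953 to 2.41 in TKO replicate 1 (median 1.50) and from 0.920 to 2.76 in TKO replicate 2 (median 1.92). At the 13 genes bound in all 4 they ranged from 1.91 to 5.01 (median 3.16) and from 1.92 to 6.29 (median 3.53), so the ranges overlapped. Among the TKO-only genes, NDUFB11, NDUFV2, NDUFAF3, NDUFV1 and NDUFA13 had the highest TKO percentiles by fold, averaged over both lists (89.9, 89.2, 82.9, 73.3 and 69.5). NDUFB3, NDUFA2, NDUFA5, NDUFA12 and NDUFA9 had the lowest (14.4, 15.0, 26.3, 27.5 and 28.3). The 5th percentile of all peaks was 0.719 and 0.766 summit RPM in the parental lists, and the lowest listed peaks had 0.492 and 0.451. How often summits of such heights went unlisted cannot be read from the lists. A gene without a listed peak is one at which no binding was called at this threshold and depth.

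By rank within a list, complex I promoter peaks were not stronger than those of other bound genes in TKO. Their median percentile by fold was 67.5 and 58.8 in parental replicates 1 and 2, against 56.8 and 56.8 over all bound genes. In TKO it was 66.6 and 69.5, against 71.0 and 70.6. The weakest listed peaks by −log10 q-value were those of NDUFAF6 in parental replicate 1 (4.01), NDUFA1 in parental replicate 2 (4.44), NDUFB3 in TKO replicate 1 (4.74) and NDUFAF1 in TKO replicate 2 (2.89).

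Summits clustered at the starts of the genes. The median offset was 64 and 52 bp upstream in parental replicates 1 and 2 and 30 and 16 bp upstream in TKO. Summits lay within 250 bp of a start at 12 and 13 of 15 genes in parental and at 34 of 41 and 37 of 42 in TKO. The farthest summit inside the 1 kb window was that of NDUFV3 in TKO replicate 2, at 688 bp, and the nearest outside it was that of NDUFA4L2 in TKO replicate 1, at 3153 bp. No strongest summit lay between these distances, so the width of the window decided few calls.

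**Figure D5:**
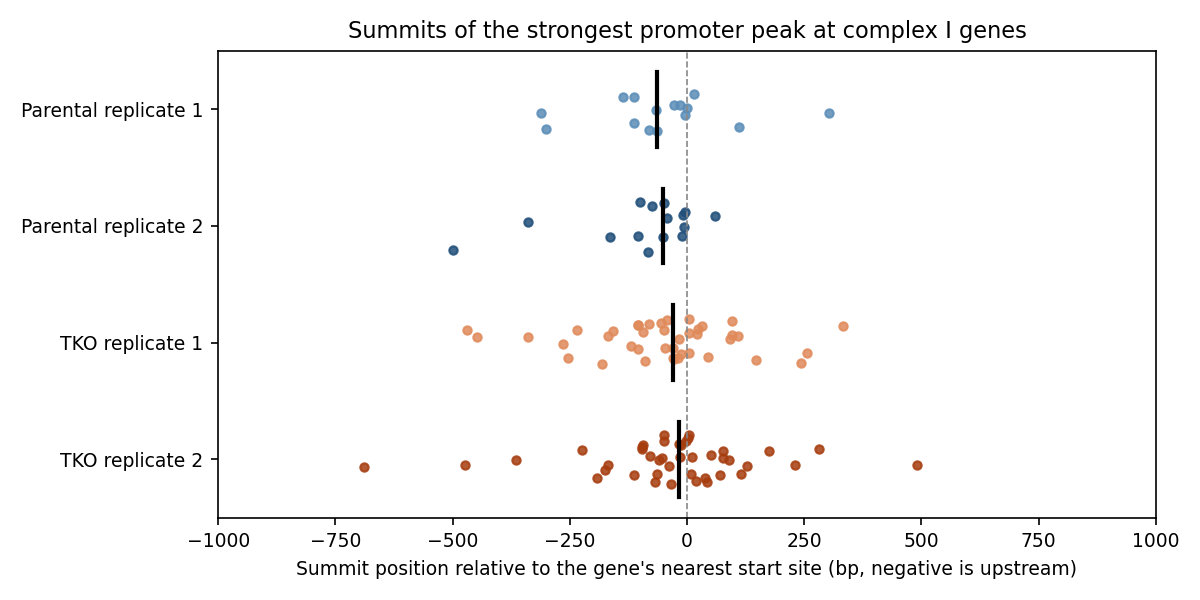
Each point is the summit of the strongest promoter peak of 1 complex I gene, placed by its distance in bp from the nearest start of that gene, in 4 rows for the 4 libraries, with a vertical bar at the median and random vertical spread. Medians lie at -64, -52, -30 and -16 bp and no summit is farther than 688 bp.

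Many complex I genes share their promoter with another gene, and a peak there cannot be assigned to either. Another protein-coding start lay within 1 kb of a start of 26 complex I genes. The count includes neighbours on the same strand at NDUFC2 (its read-through gene), NDUFA11, NDUFA9 and NDUFA13. Of these 26, 12 were bound in each parental replicate (46.2%) and 24 (92.3%) and 25 (96.2%) in TKO. Among all 3328 genes with such a neighbour, 24.8% and 26.3% were bound in parental and 77.4% and 78.4% in TKO. Of the 22 complex I genes without one, 3 were bound in each parental replicate (13.6%) and 17 in each TKO replicate (77.3%). Among all 16457 such genes the shares were 9.68% and 10.2% in parental and 43.4% and 43.96% in TKO. In parental cells the share of complex I genes without a neighbour thus rested on 3 genes per library and lay near that of all genes, while in TKO it lay above.

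The genes without a neighbouring start that were bound in parental cells were NDUFAF4 and NDUFB2 in both replicates, NDUFS7 in parental replicate 1 and NDUFB7 in parental replicate 2. Of the 13 genes bound in all 4 libraries, 11 had a neighbouring start. Another gene's start was nearer to the summit at 7 and 4 complex I genes in parental replicates 1 and 2 and at 13 and 10 in TKO. Opposite-strand partners at the bound genes included EEF1B2 at NDUFS1, RPS28 at NDUFA7, CEBPZ at NDUFAF7, ESF1 at NDUFAF5, NAA15 at NDUFC1 and KBTBD4 at NDUFS3.

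The E-box was at the summit of few complex I promoter peaks. It lay within 50 bp of the strongest summit at 3 of 15 and 4 of 15 bound complex I genes in parental replicates 1 and 2 and at 3 of 41 and 6 of 42 in TKO. Over all bound genes the shares were 21.6% and 18.5% in parental and 9.14% and 8.1% in TKO. At NDUFC1 the E-box shown above lay 25, 13, 13 and 39 bp from the summits in parental replicates 1 and 2 and TKO replicates 1 and 2. At NDUFA11 these distances were 66, 34, 51 and 37 bp, and at NDUFAF5 they were 42, 39, 68 and 27 bp. At NDUFAF2 the E-box lay 85 and 39 bp from the parental summits and 234 and 183 bp from the TKO summits.

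Around the canonical start, 250 bp to either side, CACGTG was present at 7 of 47 complex I genes with a canonical transcript in the annotation (14.9%), against 10.98% of 19507 protein-coding genes. The genes were NDUFA11, NDUFA7, NDUFAF2, NDUFAF4, NDUFAF5, NDUFAF6 and NDUFS7. By role, 4 of 8 assembly factor genes (50.0%) and 3 of 39 subunit genes (7.69%) had one. Motifs of 3 other factors known at promoters of nuclear genes for mitochondrial proteins were searched on both strands as exact letters, namely CCGGAAGT for ETS factors and the motifs of NRF1 and YY1 that stand in capitals below. Around the start, the NRF1 letters were found at 4 complex I genes (8.51%), against 1.83% of all genes. The ETS letters were found at 3 (6.38%, against 6.61%) and the YY1 letters at 4 (8.51%, against 1.68%). The genes with the NRF1 letters were NDUFA8, NDUFAF5, NDUFB4 and NDUFS8, and those with the YY1 letters included NDUFA9, NDUFAF8 and NDUFS4. Within 50 bp of a strongest summit they were rare, and no complex I peak of a parental library had one. The NRF1 letters were there at NDUFA8 in TKO replicate 1, where 0.381% of all bound genes had them (0.376% in TKO replicate 2, 0.496% and 0.51% in parental). The ETS letters were there at NDUFB5 in both TKO replicates and at NDUFA13 in TKO replicate 1, where 3.07% of all bound genes had them (3.4% in TKO replicate 2, 5% and 4.9% in parental). The YY1 letters were there at NDUFA9 in both TKO replicates, where 0.772% and 0.671% of all bound genes had them (0.579% and 0.863% in parental). These 4 sites are shown for comparison with the E-boxes, 30 bases of GRCh37 on the gene's strand with the motif in capitals.
NDUFA8, NRF1 (chr9:124922043-124922072, minus strand, UTR): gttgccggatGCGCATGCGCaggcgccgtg
NDUFB5, ETS (chr3:179322447-179322476, plus strand, outside the gene): acgatagcgtcACTTCCGGcgtctcaagcc
NDUFA13, ETS (chr19:19627013-19627042, plus strand, intron): tccgcccgggaCCGGAAGTgtgggatactg
NDUFA9, YY1 (chr12:4758281-4758310, plus strand, coding exon): ttgtgggaaAAGATGGCGGCtgccgcacaa

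Most other genes of the respiratory chain had a promoter peak in TKO as well, where all protein-coding genes stood at 49.1% and 49.7%. Of 11 complex I assembly genes with other names, 5 and 4 were bound in parental and 10 and 11 in TKO, with ACAD9, TIMMDC1 and TMEM186 bound in all 4 libraries. ACAD9, which works with NDUFAF1 and ECSIT in building the membrane arm, had 1.17 and 1.22 summit RPM in parental and 2.76 and 3.07 in TKO. Of 40 genes of complexes II to V, 7 (17.5%) and 5 (12.5%) were bound in parental and 35 (87.5%) and 38 (95.0%) in TKO. The parental shares lay near those of all genes, 12.2% and 12.9%. All 4 complex II genes were unbound in parental cells, and 3 and 4 were bound in TKO. Of 10 complex IV genes none was bound in parental cells and 8 and 9 in TKO. Of 9 complex III genes 2 and 1 were bound in parental and 8 in each TKO library, and of 17 complex V genes 5 and 4 in parental and 16 and 17 in TKO. Of 78 genes for proteins of the mitochondrial ribosome, 32 and 27 were bound in parental and 77 in each TKO library. Differences between these lists were not tested.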

How the data were processed

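Myc ChIP-seq was analysed in 2 parental and 2 TKO libraries of MDA-MB-231 cells, grouped by sample title. No peak list of the 2 input samples was analysed here. Per the submitters' processing notes the tools were NovoAlign 3.08.02 and MACS2 2.1.1.20160309. The authors aligned single-end reads of 50 cycles to hg19 and called peaks in each library on its own, at a p-value limit of 0.01 and mfold from 5 to 50, and used a q-value limit of 0.01 for the Myc sites. The lowest −log10 q-value in the deposited lists was between 2.03 and 2.07. Input samples of each condition were the controls, per the methods. Handling of duplicates is not given in the sources used here.

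Each peak in the deposited lists carries a fold enrichment (a ratio, summit pile-up over local background), a −log10 p-value and a −log10 q-value. The deposited score equals the whole part of 10 times the q-value column and was not used. The summit is given as an offset from the peak start. MACS2 derives fold and p-value from summit reads and local background, so whole summit reads were solved for, and for 100% of peaks they returned the deposited p-value, to within 0.002 in −log10 units. Depth followed from an assumed genome of 2700000000 bases and an extension equal to the narrowest peak. Counting reads limits the precision of single summits, which had a median of 21 to 33 reads.

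Start sites were those of basic protein-coding transcripts in GENCODE 44 lifted to GRCh37. Genes on mitochondrial DNA and mitochondrial peaks (11 in TKO replicate 2) were left out. Libraries were compared by exact two-sided permutation over 6 splits, so p-values measure only the spread between these libraries. Named genes were the core subunits, the assembly factors, genes bound in all 4 libraries or in no TKO library, the 5 with the highest mean TKO summit RPM, the 5 TKO-only genes with the highest and the 5 with the lowest mean percentile by fold, and genes with an E-box at a summit. Other genes of the lists were named after their values were seen, and 1 gene is counted but not reported here by name. The genes, lists and tests were chosen with earlier results of these data known. Alternatives were stricter peak thresholds, equal list lengths, other windows and starts, other member lists, a wider motif window, fold in place of reads, each library left out and a replicate block. Calculations used Python 3.11.15, numpy 2.4.6, pandas 2.3.3, scipy 1.17.1, pysam 0.24.0, matplotlib 3.10.9 and samtools 1.23.1, and the recovery of reads was tested on simulated data.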

Additional observations from a re-analysis of the deposited data

How the results depend on the processing

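Of 151 values under alternatives, 123 stayed within their limits, 26 moved and 2 reversed. The height ratio had only to keep its direction, so 2.03 counted as unchanged from 2.77. Some values could not change, such as the parental mean with a TKO library left out, so the tally overstates stability. Both reversals came with 3720 peaks in each list, where the TKO minus parental difference was -1 for complex I genes and -1.5 for subunits. There the difference for assembly factors was 0.5, the TKO mean 11.5 genes, the number bound in all 4 libraries 6, the number bound in TKO alone 0, and the share above all genes 15.4 percentage points in parental and 10.5 in TKO. With a fold of at least 5 the assembly factor difference was 5, the number in all 4 libraries 8, and the share above all genes 12.9 and 30.3 points. That share was 15.2 and 35.1 points with a −log10 q-value of at least 5, 20.0 and 40.7 with a window of 500 bp, and 17.5 and 33.6 with a window of 3 kb. At the 22 genes with no other start within 1 kb there were 3 bound genes in parental and 17 in TKO, a difference of 14. There subunits differed by 13 and assembly factors by 1. In that set 2 genes were bound in all 4 libraries, 12 in TKO alone and 2 had an E-box at a TKO summit. The share above all genes was 1.08 and 27.8 points, with all 19785 genes as the background. That background is unlike these 22 genes. The 16457 genes without such a neighbour stood at 9.68% and 10.2% in parental and at 43.4% and 43.96% in TKO, against 13.6% and 77.3% here. The cause of these shifts was not tested. With windows of 500 bp and 3 kb, 15 complex I genes stayed bound in each parental library. In TKO it was 41 in each library with 500 bp, and 41 and 42 with 3 kb. The share of all genes bound in TKO replicate 1 was 44.5% with 500 bp and 52.4% with 3 kb.

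Leaving out 1 library gave 26 to 27 more bound complex I genes in TKO, 23 to 24 more subunit genes, 13 to 15 genes bound in every library used, and 24 to 25 in TKO alone. The median height ratio was 2.37 to 2.78 and the mean number of genes with an E-box 3 to 6. The titles give same-numbered libraries only a replicate number, so whether they were prepared together is not known. Their deviations correlated at 0.0722 over 1843 genes, which cannot settle it. With the number as a replicate block the differences stayed at 26.5, 23.5 and 3 and the ratio at 2.77, and the smallest p that the block allows is 0.5. The ratio over even coverage (2.09) and that over 11 sites (2.77) were chosen after seeing the data. Depth differed between libraries, and heights assume the genome size and extension given above.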
